A study of Equus caballus with 17 samples.

Results

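In horse muscle cell cultures, 97 genes met a rule for losing at least 1 unit of log2 expression between 48 h and 72 h in room air. The rule, which also set limits on level, was applied to 38849 gene IDs. These 97 genes are described here at every oxygen level studied. For each gene, CPM (the gene's reads scaled to a fixed library total) was put on the scale log2(CPM + 1), and T is the mean at 21% O2 for 72 h less the mean at 21% O2 for 48 h. A gene belonged to the set if T was -1 or lower and its mean at 21% O2 for 48 h was at least 5 CPM. The 100 IDs of highest mean CPM over the 17 libraries were left out, which removed 1 gene that met the other conditions. Of 9979 genes that could enter by level, 97 did, or 0.972%.

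By the labels, all cells were grown from gluteus medius muscle of a single foal, aged 10 months and described as preterm, taken after death. They were pre-plated to remove fibroblasts, so the cultures were rich in myoblasts but not pure, and no group carried a genetic change. All cultures spent a first night in room air. There were 5 libraries at 21% O2 for 48 h, 4 at 21% O2 for 72 h, 3 at 1% O2 for 48 h, 2 at 1% O2 for 72 h and 3 at 3% O2 for 72 h. The labels speak of technical replicates of 1 animal's cells, so every p-value below measures the spread between these libraries and not between animals.

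Myoblasts are the dividing precursors of muscle fibres. As a culture grows dense they leave the cell cycle, switch on contractile genes and fuse into myotubes, while genes of the dividing state are turned down. At low oxygen, hypoxia-inducible factors escape breakdown and raise genes of glycolysis and of blood vessel growth, and low oxygen is known to alter how myoblasts divide and differentiate. None of the gene IDs could be paired with a gene name, so which of these programmes the 97 genes belong to was not determined. For the same reason the culture could not be checked against myoblast, fibroblast or other cell type markers. In bulk RNA, fewer cells of a type and less RNA per cell cannot be told apart.

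The libraries did not all sort by their labels. Over the 14368 tested genes outside the set, the first principal component held 44.6% of the variance and placed 8 libraries on one side and 9 on the other. The 8 were the 4 room air libraries of 72 h, replicate 3 of both 48 h groups and, at 3% O2, replicates 2 and 3. The mean level of the 97 genes ran from 3.67 to 4.53 in those 8 libraries and from 4.66 to 5.61 in the other 9, without overlap. The room air libraries chose the members, low at 72 h and high at 48 h, which favours this separation. In the low oxygen libraries alone the levels were 4.24 to 4.53 and 4.66 to 5.57. Total counts overlapped, at 12358247 to 21478497 and 12998260 to 24274627. Replicate 3 in both 48 h groups and replicate 1 at 3% O2 thus lay opposite to the rest of their groups. The labels of these 3 libraries were used as given. Whether they are right was not tested, and if any is wrong, the group means and T change with it. The part that this division plays in the results below was not tested, and each comparison is given with and without these 3 libraries. They were picked by their expression, which makes p-values without them too small. Replicate 1 at 21% O2 for 72 h is not among them, as it lay on the side of its group. Its mean level of the 97 genes, 4.28, was nearer to the 4.24 of replicates 2 and 3 at 3% O2 than to the rest of its group, at 3.67 to 3.87. Its label was also used as given.

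By their level at 21% O2 for 48 h, the genes covered a wide range of expression. Their means there ran from 5.50 to 564 CPM with a median of 38.8 CPM, and at 72 h from 0.971 to 239 CPM with a median of 16.0 CPM. At 48 h, 22 genes were above 100 CPM, 55 lay between 10 and 100 CPM and 20 between 5 and 10 CPM. The set took 1.25%, 0.799% and 1.50% of the genes that could enter in these classes, so it was not made up mainly of scarce transcripts. At 72 h in room air 27 of the 97 were under 5 CPM, against 6 at 1% O2 for 48 h, 5 at 1% O2 for 72 h and 18 at 3% O2 for 72 h.

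T itself was close to the limit for most members. The median T was -1.20 and the quartiles were -1.43 and -1.09. Only 21 genes had a T of -1.5 or lower, and 1 of -2 or lower. Just inside the limit, 3 genes had T of -1.004, -1.002 and -1.002, and just outside it the next 3 had -0.991, -0.985 and -0.981. Membership near the limit therefore separates genes with nearly equal values.

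In the fit of all libraries with edgeR's quasi-likelihood test, all 97 members passed the low-count filter and 76 were called lower at 72 h than at 48 h in room air (adjusted p under 0.05), where 3.15% of all 14465 genes tested were called lower. This contrast chose the members, so the count only describes them. For 38 members every library at 48 h lay above every library at 72 h, against 2.65% of all genes tested. The others overlapped, and replicate 3 at 48 h was the lowest of its 5 libraries for 78 members. With replicate 1 or replicate 5 of the 48 h group left out, 50 were called each time, against 1.51% and 1.50% of all genes. With replicates 2, 3 and 4 of the 72 h group left out in turn, the calls numbered 34, 35 and 41, against 0.758%, 0.862% and 0.957%. Without the 3 libraries opposite to their groups 92 were called, against 13.5%.

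The summed picture was the same library by library. At 21% O2 for 48 h the mean of log2(CPM + 1) over the 97 genes was 5.61, 5.16, 4.38, 5.41 and 5.52 in replicates 1 to 5, a mean of 5.21 ± 0.50 (SD, n = 5). At 72 h it was 4.28, 3.67, 3.84 and 3.87 in replicates 1 to 4, a mean of 3.91 ± 0.26 (SD, n = 4). Replicate 3 at 48 h sat next to replicate 1 at 72 h, 4.38 against 4.28, and the other libraries of the 2 times were well apart. The members took 0.531% to 0.975% of all counts at 48 h and 0.259% to 0.430% at 72 h.

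**Figure D1:**
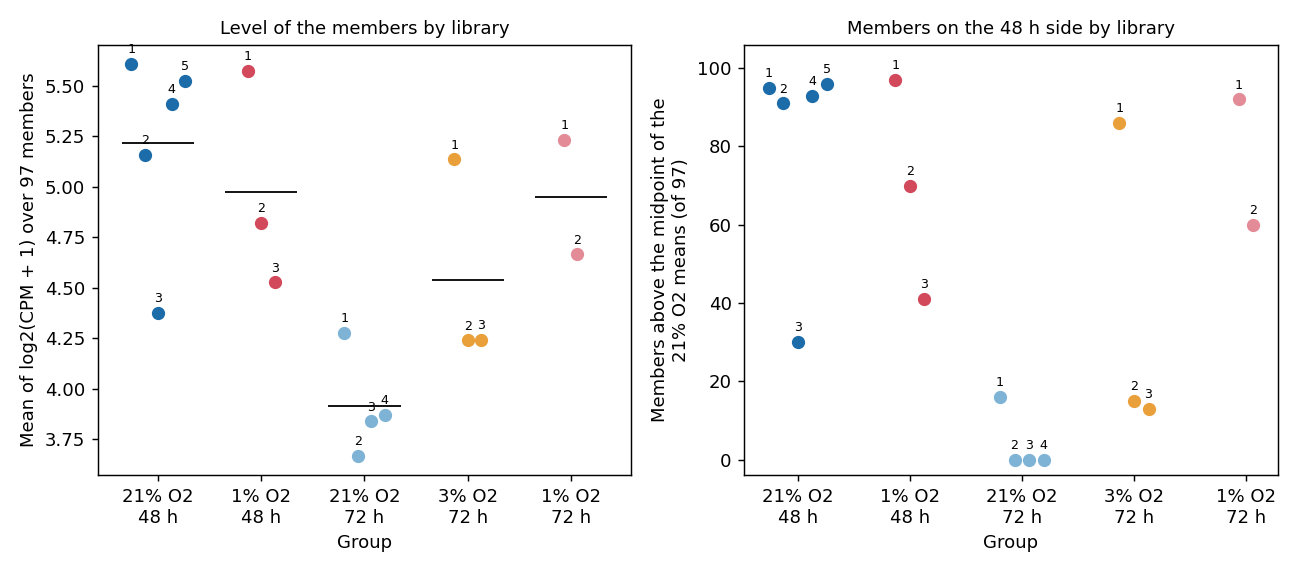
Left, the mean of log2(CPM + 1) over the 97 genes in each of 17 libraries, by group, with replicate numbers beside the points and the group mean as a line. Right, how many of the 97 genes in each library lay above the midpoint of their 2 means at 21% O2. Replicate 3 at 21% O2 for 48 h is at 4.38 on the left and at 30 genes on the right, far from the other libraries of its group.

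Each library at 21% O2 was also left out in turn, the members were chosen anew from the other 8, and their level was read in the library that had no part in the choice. For 8 of the 9 libraries it lay beyond all libraries of the other time: above them for 48 h libraries and below them for 72 h libraries. Those libraries of the other time did take part in the choice, which favours this order, so it is a description. The exception was replicate 3 at 48 h. The 166 genes chosen without it had a mean level of 4.27 in it, inside the range of 3.99 to 4.38 at 72 h and below the 5.16 to 5.72 of the other libraries at 48 h. Replicate 1 at 72 h was the next furthest from its group, at 4.69 over 134 genes, where the other 72 h libraries lay at 3.92 to 4.09 and those at 48 h at 4.85 to 5.57. The set of 97 thus depends on which libraries set it, since 93 of the 97 were among the 166 but made up 56.0% of them.

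At 1% O2 the same genes lay nearer to their 48 h than to their 72 h room air level, and at 3% O2 they lay between. At 1% O2 for 48 h the mean level was 5.57, 4.82 and 4.53 in replicates 1 to 3, a mean of 4.97 ± 0.54 (SD, n = 3). At 1% O2 for 72 h it was 5.23 and 4.66, a mean of 4.95 ± 0.40 (SD, n = 2). At 3% O2 for 72 h it was 5.13, 4.24 and 4.24, a mean of 4.54 ± 0.52 (SD, n = 3). Both libraries at 1% O2 for 72 h lay above all 4 at 21% O2 for 72 h, while at 3% O2 replicates 2 and 3 lay just under the highest of those 4.

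Counting genes gave a finer view of the same libraries. Of the 97 genes, 92 and 60 lay above the midpoint of their room air means in replicates 1 and 2 at 1% O2 for 72 h. At 3% O2 the numbers were 86, 15 and 13 in replicates 1 to 3, and at 1% O2 for 48 h they were 97, 70 and 41. Replicate 1 thus carried nearly the whole set on the 48 h side in all 3 low oxygen groups. The lowest group mean of the 5 was that of 21% O2 for 72 h in 95 of 97 genes, a count that the choice of members favours.

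Placed on a line from the 72 h mean in room air (0%) to the 48 h mean (100%), the median gene stood at 80.6% at 1% O2 for 48 h, at 80.3% at 1% O2 for 72 h and at 47.0% at 3% O2 for 72 h. At 1% O2 for 72 h, 22 genes were at or above their 48 h room air mean, 62 were in the upper part of the line from 50%, 12 in the lower part and 1 below it. At 3% O2 for 72 h the same classes held 1, 43, 52 and 1 genes. The mean at 3% O2 lay between those of 21% and 1% O2 at 72 h for 83 of the 97. That mean averages unlike libraries, with 86, 15 and 13 genes above the midpoint in replicates 1 to 3. Both ends of this line are values that chose the members, so positions along it are a description.

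**Figure D2:**
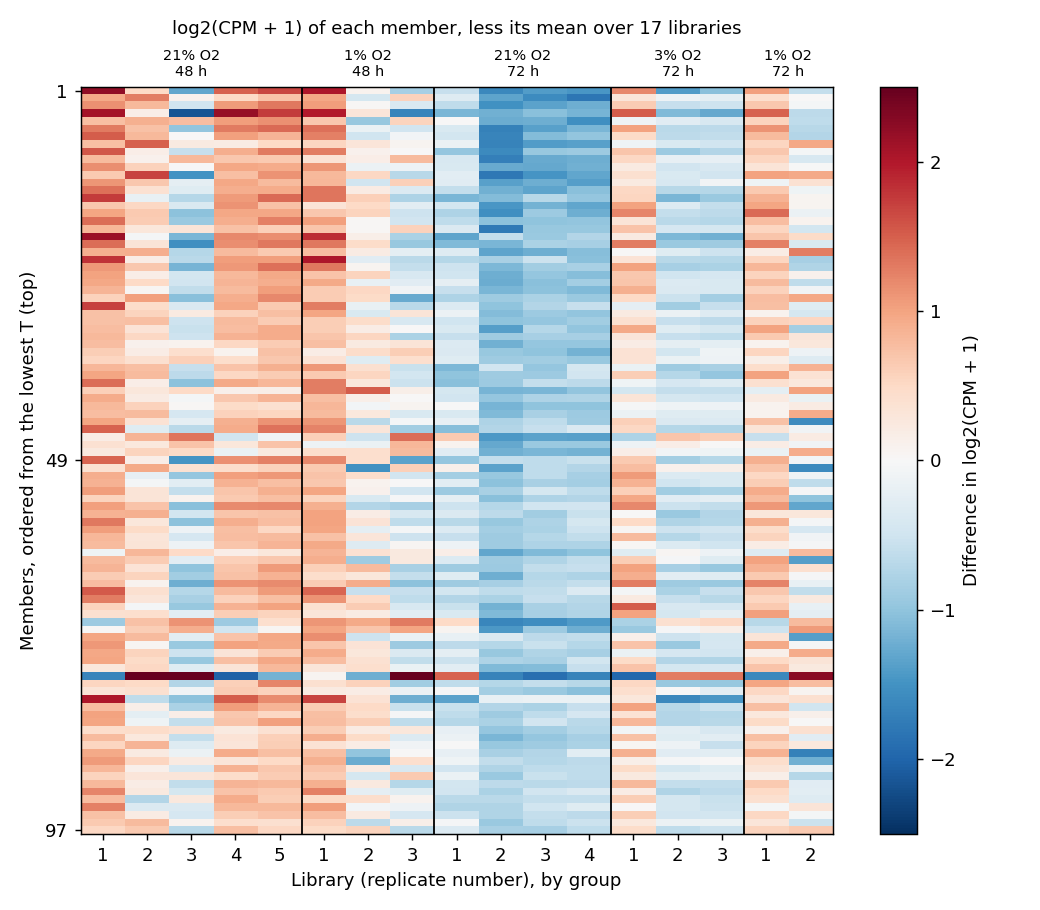
Each row is 1 of the 97 genes, ordered from the lowest T at the top, and each column a library, grouped by oxygen level and time with the replicate number below. Colour gives log2(CPM + 1) less the gene's mean over the 17 libraries. At 21% O2 for 72 h the columns of replicates 2 to 4 are blue almost throughout, and that of replicate 1 is less uniform. In that library 16 genes lay above the midpoint of their 2 room air means, against 0 in each of replicates 2 to 4. Replicate 1 of each low oxygen group is mostly red, and replicate 3 at 21% O2 for 48 h is mixed.

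At 1% O2 the change with time is estimated from libraries that did not set T, although the spread behind its p-values came from the fit of all libraries. The genes did not pass the test there. None of the 97 was called between 2 libraries at 72 h and 3 at 48 h by edgeR, where 0% of all genes were called, and the smallest adjusted p among members was 1.00. At an unadjusted p under 0.05 there were also 0 members, against 1.78% of all genes, and DESeq2 and limma-voom each called 0. A fit of the 5 libraries at 1% O2 alone also gave 0 members at either threshold. With replicate number added as a block, 0 members were called and 4 had an unadjusted edgeR p under 0.05. With replicate 2 of the 48 h group left out, these numbers were 0 and 3. The share of all genes at that unadjusted p was not counted in these 2 fits. In the main fit of all libraries the log2 fold changes of members ran from -0.97 to 0.87, with a median of -0.098. The median of all genes tested was 0.0039.

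The sign was negative for 62 members and positive for 35, or 63.9% negative against 49.2% of all genes. Groups did not overlap for 1 member in the downward direction and 4 in the upward, against 3.98% and 3.46% of all genes. No member's fitted change reached 2-fold either way at 1% O2, while in room air the fitted median was -1.45. By the means of log2(CPM + 1), on which T is defined, 1 member fell by at least 1 at 1% O2 and 0 rose by as much. The standard error of a member's fold change at 1% O2 had a median of 0.48, and a missed threshold does not show that a gene kept its level. Leaving out replicate 1 of the 48 h group turned the median over members to 0.34, and leaving out replicate 2 of the 72 h group turned it to 0.15. It was -0.22 and -0.24 when replicates 2 and 3 of the 48 h group were left out, and -0.32 when replicate 1 of the 72 h group was. Without the 3 libraries opposite to their groups the median was -0.24, with 0 members called and 1 at an unadjusted p under 0.05. The share of all genes at that p was not counted there.

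**Figure D3:**
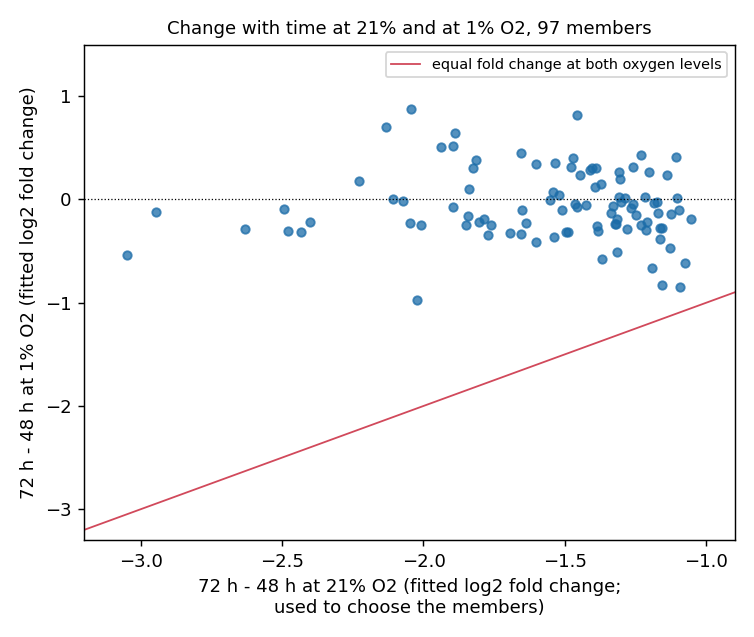
Fitted log2 fold change from 48 h to 72 h at 21% O2 (horizontal) and at 1% O2 (vertical) for each of the 97 genes, with a line where both would be equal. The points lie around 0 on the vertical axis, with a median of -0.098, while the horizontal values, which chose the genes, have a median of -1.45.

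The difference between the 2 time courses was fitted as an interaction. No member passed by edgeR (0 of 97, and 0% of all genes), with a smallest adjusted p of 0.163 among members. All 97 estimates were positive, with a median of 1.43, where 48.6% of all genes were negative, and 60 members had an unadjusted p under 0.05, against 14.0% of all genes. The room air values that chose the members are part of each estimate, which pushes them upward. DESeq2 called 11 members, against 0.194% of all genes, and limma-voom called 0. By edgeR, leaving out replicate 3 of the 48 h room air group gave 8 calls, against 0.166%, and leaving out replicate 1 of the 72 h room air group gave 9, against 0.111%. Without the 3 libraries opposite to their groups 28 were called, against 1.54%. In the fit of all libraries, a difference between the time courses was thus called for some members by DESeq2 and for none by edgeR or limma-voom.

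The fold changes between the 2 low oxygen levels at 72 h also come from libraries that did not set T, with the spread again from the fit of all libraries, and here most of the genes were lower at 3% than at 1% O2 without passing the test. By edgeR, 0 of 97 were called, as were 0% of all genes, and the smallest adjusted p among members was 0.552. The fitted log2 fold change of 3% against 1% O2 was negative for 85 members, or 87.6%, against 49.5% of all genes. Its median was -0.42, with quartiles of -0.74 and -0.17, where all genes had a median of 0.0050. All 11 members with an unadjusted p under 0.05 were lower at 3% O2, and over all genes 8.75% had such a p in either direction. DESeq2 and limma-voom called 0. A fit of these 5 libraries alone called 0, with 19 members at an unadjusted p under 0.05. The share of all genes at that threshold was not counted for this fit, so the 19 cannot be set against it.

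At 3% O2 every library lay below both libraries at 1% O2 for 20 members, against 9.16% of all genes, and the reverse was seen for 0 members, against 11.7%. The mean level of replicate 1 at 3% O2, 5.13, lay between the 5.23 and 4.66 of the 1% O2 libraries, while the 4.24 of replicates 2 and 3 lay below both. With that library left out the median fold change was -0.89 and 0 members were called. Leaving out replicate 1 or replicate 2 at 1% O2 gave medians of -0.15 and -0.65, and leaving out replicate 2 at 3% O2 gave -0.26. Without the 3 libraries opposite to their groups, 25 members were called lower at 3% O2, against 4.37% of all genes.

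The other comparisons of oxygen levels share room air libraries with the choice of members, so their values only describe the genes. At 48 h, 1% against 21% O2 gave a median fitted log2 fold change of -0.25 over members, with 87 negative, against 50.6% of all genes, and 0 called by edgeR, against 0%. That median was -0.030 with replicate 3 at 1% O2 left out and -0.57 with replicate 1 there left out. At an unadjusted p under 0.05 there was 1 member, against 2.92% of all genes. For 3% against 21% O2 at 72 h the median was 0.81, 96 of 97 were positive where 49.3% of all genes were negative, and 0 were called, against 0% of all genes, with 36 at an unadjusted p under 0.05, against 5.49%. Leaving out replicate 1 at 3% O2 brought that median to 0.36. Without the 3 libraries opposite to their groups, 0 members were called in either comparison, with medians of -0.20 at 48 h and 0.37 at 72 h. Then 1 and 14 members had an unadjusted p under 0.05, and the share of all genes at that p was not counted. DESeq2 and limma-voom called 0 members in both comparisons.

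For 1% against 21% O2 at 72 h all 97 were positive with a median of 1.27, where 48.5% of all genes were negative, and 69 were at least 2-fold higher at 1% O2. By edgeR 8 were called higher, against 0.346% of all genes, and 66 did not overlap, against 13.7%. DESeq2 called 39, against 2.39% of all genes, and limma-voom called 0. By edgeR, a fit of the groups alone called 56, against 5.06%, and without the 3 libraries opposite to their groups 66 were called, against 7.99%. With replicate 1 at 21% O2 left out the count was 31, against 1.54% of all genes, and with replicate 2, 3 or 4 at 21% O2 or replicate 2 at 1% O2 left out it was 0. Choosing genes for low values in the 4 libraries at 21% O2 for 72 h favours such positive differences at both oxygen levels.

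**Figure D4:**
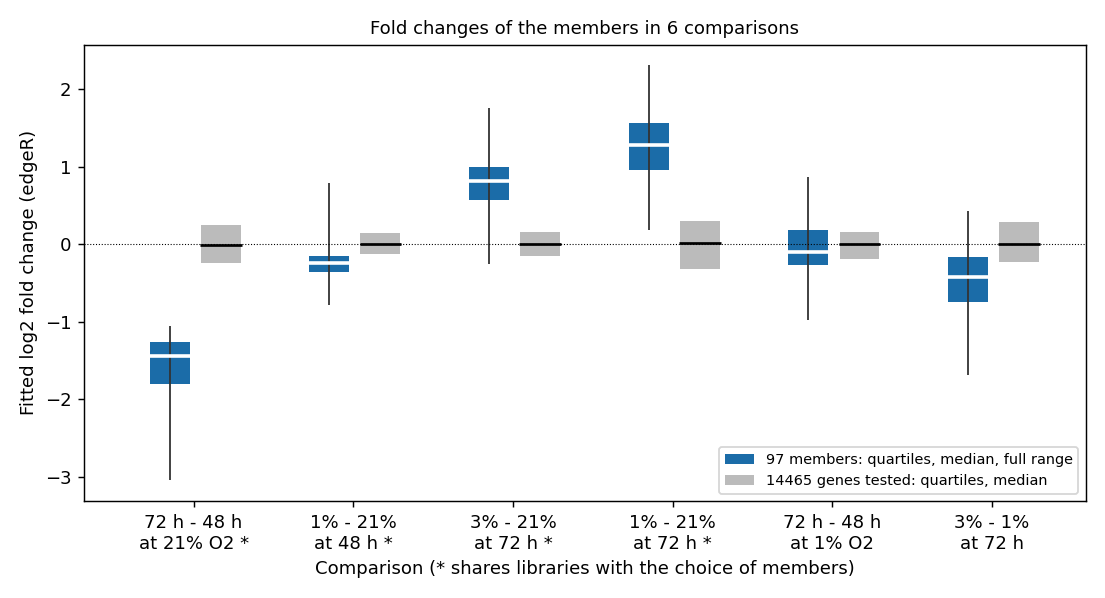
Fitted log2 fold changes in 6 comparisons. Blue bars span the quartiles of the 97 members with the median as a white line and the full range as a thin line, and grey bars span the quartiles of the 14465 genes tested with the median in black. In the 2 comparisons that share no library with the choice of members, at the right, the medians of the members are -0.098 and -0.42.

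Libraries of 1 group differed more in these genes than in others. In the groups that set no T, the median range between the highest and lowest library was 1.29 in log2(CPM + 1) at 1% O2 for 48 h, 0.78 at 1% O2 for 72 h and 1.08 at 3% O2 for 72 h. The other genes that could enter by level had 0.52, 0.35 and 0.36. A range of at least 1 was seen for 72, 34 and 55 members, against 13.4%, 8.55% and 7.79% of those other genes. At 1% O2 for 48 h and at 3% O2 the range between libraries kept under the same conditions thus came near the size of the median T, -1.20. A cut on T favours genes that vary between libraries, and the part this plays in the wider ranges was not tested.

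In each low oxygen group 1 library was the highest for most members. Replicate 1 was highest for 79 members at 1% O2 for 48 h, for 76 at 1% O2 for 72 h and for 91 at 3% O2 for 72 h. In room air replicate 1 was highest for 44 members at 48 h and for 69 at 72 h. How often it was highest among other genes was not counted. Replicate 3 was lowest for 67 members at 1% O2 for 48 h. After the group means were taken out, the median member correlated with the mean of the other 96 at r = 0.85 over the 8 low oxygen libraries, and 80 members had r over 0.5. Other genes that could enter by level had a median r of 0.41 with the mean of the members, and 45.0% of them had r over 0.5. All these values share the same 8 libraries. For 7 members r was negative, so a minority went against the rest.

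The tagwise biological coefficient of variation from the edgeR fit, which is the relative spread between libraries of a group beyond counting error, had a median of 36.5% over members and 17.9% over all genes that could enter by level. Its lowest value among members was 18.3%. The room air libraries that chose the members are part of this fit, and a cut on T favours variable genes. The higher spread of the members is therefore a description. The lowest count of a member in any library had a median of 155 reads, and the minimum was 3 reads, so counting error was small beside this spread for most of them.

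The gene with the lowest T was ENSECAG00000015342 (T = -2.17). At 21% O2 for 48 h it was at 30.1, 8.38, 1.69, 17.5 and 20.1 CPM in replicates 1 to 5, and at 72 h at 3.49, 1.16, 1.54 and 1.43 CPM in replicates 1 to 4. Replicate 3 at 48 h lay inside the 72 h range and the other 4 lay above it. At 1% O2 it was at 26.0, 6.08 and 2.73 CPM at 48 h and at 12.5 and 3.40 CPM at 72 h, and at 3% O2 for 72 h at 14.4, 1.54 and 2.22 CPM. Replicate 1 was well above the other libraries in each low oxygen group. The fitted log2 fold change with time was -3.05 ± 0.87 in room air (SE, edgeR adjusted p = 0.0376) and -0.54 ± 1.05 at 1% O2 (SE, edgeR adjusted p = 1.00). For 3% against 1% O2 at 72 h it was -0.42 ± 1.04 (SE, edgeR adjusted p = 0.890). Both of the latter changed sign when replicate 1 at 1% O2 was left out, the first to 0.83 without that of 48 h and the second to 0.69 without that of 72 h. The room air call was lost by limma-voom, and by edgeR when replicate 1, 4 or 5 at 48 h or replicate 2, 3 or 4 at 72 h was left out.

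ENSECAG00000013681, with the next lowest T of -1.96, kept its groups apart in room air. It was at 10.1, 12.8, 5.14, 7.04 and 8.40 CPM at 48 h and at 3.56, 1.30, 0.915 and 0.637 CPM at 72 h. Replicate 3 was again the lowest of its 5 libraries but stayed above all at 72 h. At 1% O2 the gene was at 10.2, 3.23 and 7.49 CPM at 48 h and 6.60 and 4.75 CPM at 72 h, and at 3% O2 for 72 h at 6.08, 4.21 and 3.80 CPM. All 5 low oxygen libraries at 72 h lay above the 4 in room air. With time the fitted log2 fold change was -2.48 ± 0.46 in room air (SE, edgeR adjusted p = 0.00426) and -0.30 ± 0.56 at 1% O2 (SE, edgeR adjusted p = 1.00), the latter 0.023 without replicate 1 at 1% O2 for 48 h.

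The 2 members with the highest fitted fold change with time at 1% O2 were ENSECAG00000005082 (T = -1.38) and ENSECAG00000024110 (T = -1.08). ENSECAG00000005082 was at 6.38, 9.13, 1.39, 8.32 and 10.4 CPM at 21% O2 for 48 h and at 1.92, 1.68, 1.88 and 1.59 CPM at 72 h. At 1% O2 it was at 6.74, 5.92 and 1.08 CPM at 48 h and 7.51 and 8.69 CPM at 72 h, and at 3% O2 for 72 h at 5.98, 2.43 and 1.75 CPM. Replicate 3 of both 48 h groups lay below all libraries at 21% O2 for 72 h, and both libraries at 1% O2 for 72 h lay above the 3 at 48 h. The fitted change with time at 1% O2 was 0.87 ± 0.66 (SE, edgeR adjusted p = 1.00), against -2.04 ± 0.53 in room air (SE, edgeR adjusted p = 0.0250). For 3% against 1% O2 at 72 h it was -1.32 ± 0.66 (SE, edgeR adjusted p = 0.552). The change with time at 1% O2 fell to 0.41 with replicate 3 of its 48 h group left out and rose to 1.25 with replicate 1 left out. The room air call was lost by limma-voom, and by edgeR with replicate 2, 4 or 5 at 48 h or replicate 2, 3 or 4 at 72 h left out.

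ENSECAG00000024110 likewise had both libraries at 1% O2 for 72 h above the 3 at 48 h. In room air it was at 9.47, 9.20, 3.33, 9.80 and 15.7 CPM at 48 h and at 3.63, 3.40, 3.76 and 3.43 CPM at 72 h. At 1% O2 it was at 8.48, 9.77 and 2.95 CPM at 48 h and 13.1 and 11.3 CPM at 72 h, and at 3% O2 for 72 h at 9.34, 2.75 and 2.74 CPM. Replicate 3 at 1% O2 for 48 h and replicates 2 and 3 at 3% O2 lay below all 4 libraries at 21% O2 for 72 h. The fitted change with time was 0.82 ± 0.54 at 1% O2 (SE, edgeR adjusted p = 1.00) and -1.46 ± 0.42 in room air (SE, edgeR adjusted p = 0.0390). The value at 1% O2 was 0.47 with replicate 3 of the 48 h group left out and 1.11 with replicate 2 left out. The room air call was lost with library size scaling (-1.42, edgeR adjusted p = 0.0514), by limma-voom, with the replicate block (-1.08, edgeR adjusted p = 0.0640), and with any room air library but replicate 3 at 48 h left out. For 3% against 1% O2 at 72 h the fold change was -1.35 ± 0.54 (SE, edgeR adjusted p = 0.552). Without the 3 libraries opposite to their groups the last value was -2.17 (edgeR adjusted p = 3.55e-04) for this gene and -1.999 (edgeR adjusted p = 9.23e-04) for ENSECAG00000005082. The choice of both genes and of the libraries left out favours such values, so these p-values are too small.

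**Figure D5:**
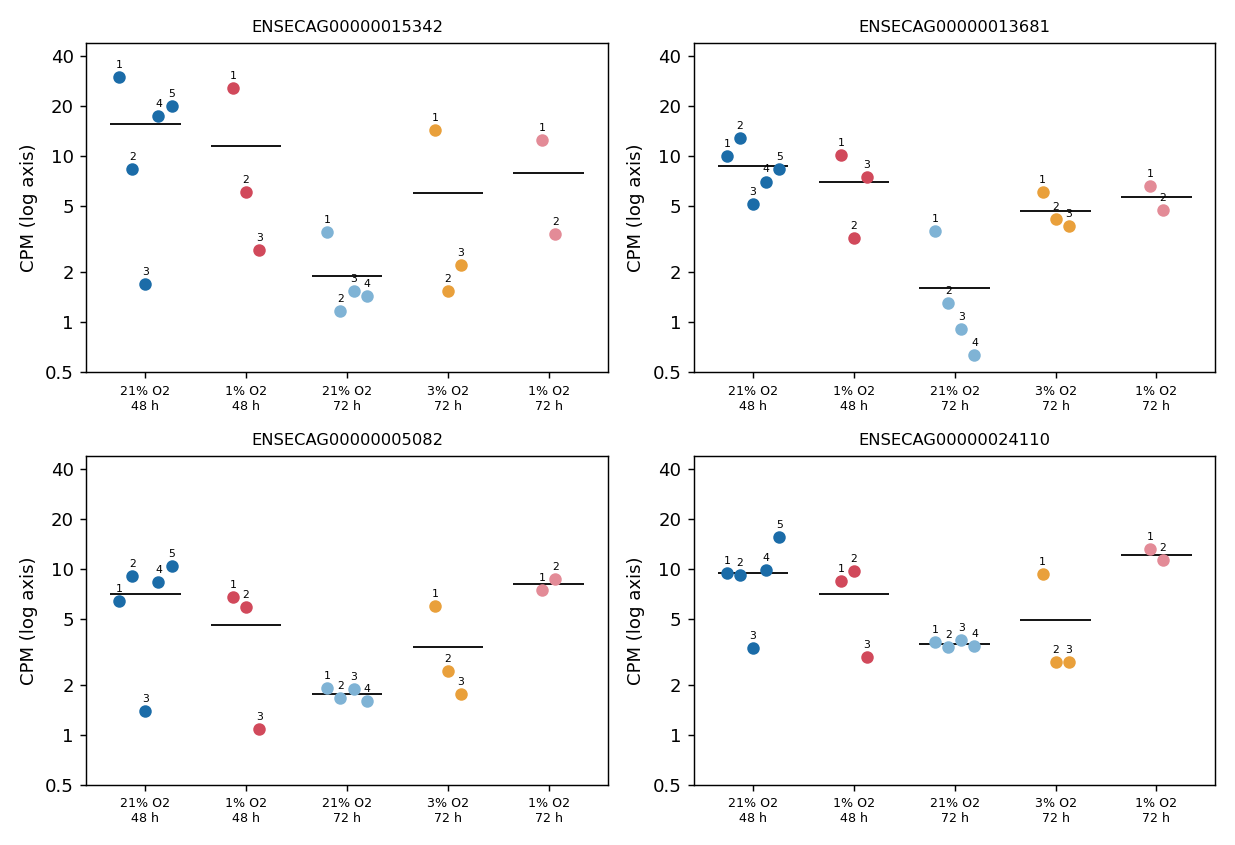
CPM on a log axis in each library for the 2 genes of lowest T (top) and the 2 of highest fitted change with time at 1% O2 (bottom), by group, with replicate numbers and the group mean as a line. In ENSECAG00000015342, ENSECAG00000005082 and ENSECAG00000024110 replicate 3 at 21% O2 for 48 h lies among or below the 72 h room air libraries, and in ENSECAG00000013681 it lies above them.

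One member stood apart from all others in how widely it varied, and it was singled out after its values were seen. Its coefficient of variation was 116%, where the next highest among members was 85.2%. It was at 6.65, 164, 172, 4.98 and 9.68 CPM in replicates 1 to 5 at 21% O2 for 48 h and at 66.3, 6.56, 5.58 and 6.61 CPM in replicates 1 to 4 at 72 h. At 1% O2 it was at 24.5, 9.31 and 171 CPM at 48 h and 6.91 and 114 CPM at 72 h, and at 3% O2 for 72 h at 5.23, 57.9 and 60.0 CPM. High libraries of at least 57.9 CPM and low ones of at most 9.68 CPM occurred in every group, with a single library at 24.5 CPM between. Which libraries were high was shared in part with other members. It was 1 of the 7 members with a negative r over the low oxygen libraries, at r = -0.77. Another of the 7, at r = -0.60, was at 115 CPM in replicate 3 at 21% O2 for 48 h. That gene was at 71.4 CPM in replicate 1 at 21% O2 for 72 h and at 16.0 to 17.2 CPM in replicates 2 to 4. The labels name 1 foal for all libraries, and whether every library came from its cells was not tested. The T of the most variable member, -1.09, rests on how many high libraries each room air group held, 2 of 5 at 48 h and 1 of 4 at 72 h. It also rests on their level, 164 and 172 CPM at 48 h against 66.3 CPM at 72 h. In room air edgeR did not call this member (log2 fold change -1.84, adjusted p = 0.414).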

How the data were processed

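The authors deposited raw read counts for each Ensembl gene ID, in a separate table for each of 17 libraries. Per the submitters' processing notes, STAR 2.7.10a, HTSeq 0.13.5, fastp 0.23.2, DESeq2 1.38.0 and build EquCab3.0 were used, with no role given. The annotation release, strand setting and handling of multi-mapped reads were not given in the sources used here, which leaves overlapping and near-identical genes uncertain. No ID matched the reference table of 39335 genes, so gene lists were not run, and no sequence or position was used. Total counts ran from 12358247 to 24274627.

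Members were chosen by T as defined above. Differential expression was tested with edgeR 4.0.16 (R 4.3.3), by the quasi-likelihood test with TMM scaling and filterByExpr, in 1 fit of all 17 libraries, with Benjamini-Hochberg adjustment over 14465 genes and a threshold of 0.05. Standard errors are those implied by the F statistic. The scripts were tested on simulated counts. The alternatives tried were other scaling, no filter, DESeq2 1.42.0, limma-voom (limma 3.58.1), a replicate block, the groups alone and libraries left out. Settings for the interaction were added later. The members, lists and tests were chosen with earlier results of these data known. By rule, the 2 members of lowest T and the 2 of highest fitted change with time at 1% O2 are printed by ID. Replicates 2 and 3 at 3% O2 were the closest pair (chi-square over degrees of freedom, 2.29) and were kept as separate samples.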

Additional observations from a re-analysis of the deposited data

Results flagged for a closer look

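In groups of 4 or 5 libraries, each highest and lowest value was examined for its gap to the nearest of the others, over the level of the members, their share of counts and the 4 genes printed by ID. Of 12 such sets of values 1 held a library far from the rest, where chance alone gives about 1 in 20. ENSECAG00000015342 was at 3.49 CPM in replicate 1 at 21% O2 for 72 h, while the other 3 libraries lay at 1.16 to 1.54 CPM.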

How the results depend on the processing

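Under 7 other forms of the rule for members (pseudocounts of 0.5 and 2, TMM or DESeq2 size factors, minimum means of 1 and 10 CPM, and the most abundant IDs kept) their number was 77 to 115. It was 75 to 166 with 1 library left out, and 165 without the 3 libraries opposite to their groups. Members called with time at 21% O2 numbered 34 to 90 with 1 library left out, against 0.758% to 7.94% of all genes called lower. For 1% against 21% O2 at 72 h, where 8 were called, the number was 25 with no low-count filter, against 0.278% of all genes called higher. It was 39 with DESeq2 (2.39%), 0 with limma-voom, 56 with the groups alone (5.06%) and 66 without the 3 libraries (7.99%). With 1 library at 21% O2 for 72 h left out it was 0 to 31, where 31 stood against 1.54%. For 3% against 21% O2 it was 0 to 4 with 1 library left out. The 4 came without replicate 1 at 21% O2 for 72 h, against 0.0554% of all genes called higher. For the interaction it was 0 to 9 with 1 library outside 1% O2 for 72 h left out, where 9 stood against 0.111%. There it was 11 with DESeq2 (0.194%) and 28 without the 3 libraries (1.54%). For 3% against 1% O2 the number called was 25 without the 3 libraries, against 4.37% of all genes called lower, with a median of -0.89. That median was -0.89 to -0.15 with 1 library left out. The cause of these shifts was not tested. With 1 library left out, the change with time at 1% O2 was -1.65 to 0.83 for ENSECAG00000015342 and -0.65 to 0.023 for ENSECAG00000013681, and 3% against 1% O2 was -2.06 to 0.69 for ENSECAG00000015342. The lone library left at 1% O2 for 72 h is then assumed to vary like the other groups.

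The labels do not say that same-numbered libraries share a culture or day. Their deviations correlated at r = 0.38 and 0.29 with time at 1% O2, at 0.43 and 0.37 for 3% and 1% O2 at 72 h, both with only 2 pairs, and at 0.46, -0.033 and 0.75 for 1% and 21% O2 at 48 h. In the comparisons that include 21% O2 for 72 h they ran from -0.26 to 0.18. Since r was not positive in every comparison, the numbers were not taken as pairs in the main fit. With the replicate block, 78 members were called with time at 21% O2, against 3.09% of all genes called lower. It gave 0 calls with time at 1% O2 (median -0.24), with 4 members at an unadjusted edgeR p under 0.05. For 1% against 21% O2 at 72 h it gave 0 calls. For 3% against 1% O2 at 72 h the block also gave 0 calls, with 11 members at an unadjusted edgeR p under 0.05. The share of all genes at that unadjusted p was not counted under the block.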
